A study of Mus musculus with 4 samples.

Results

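The 6 microRNAs described here are those of the mouse cluster that runs from miR-17 to miR-92a, mmu-miR-17, mmu-miR-18a, mmu-miR-19a, mmu-miR-20a, mmu-miR-19b and mmu-miR-92a. They were taken by assay name, without the part number and the arm, from a panel that read 375 microRNA assays in 4 samples, and each of the 6 names matched 1 mouse assay. The samples were whole C57BL/6 mouse embryos at stage E18.5. Of these, 2 were wild-type and 2 were labelled ER-alpha KO, which lack the nuclear estrogen receptor that Esr1 encodes. The knockout allele, the genotype and treatment of the mothers, and whether a sample was a single embryo or a pool are not stated in the labels, so the p-values rest on the spread of these samples alone, which can be partly technical. All comparisons are between these 2 genotypes, which share strain, stage and RNA isolation. RNA of a whole embryo mixes all tissues, so fewer cells of a type and less RNA per cell cannot be told apart.

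The cluster is transcribed as 1 primary RNA, from which the enzymes Drosha and Dicer release 6 hairpins and their mature microRNAs. Its transcription is known to be driven by MYC and E2F factors, and its products restrain Bim (Bcl2l11), which promotes cell death. Mice that lack the cluster die around birth with small lungs, heart defects and a block in B-cell development. In breast cancer cells, estrogen is known to raise MYC and the cluster, and miR-18a, miR-19b and the paralog miR-20b have been reported to act on the ER-alpha mRNA.

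The RefSeq entries of all 6 members were found in the GRCm38.p6 tables. The hairpins lie on the plus strand within 836 bases at chr14:115043671-115044506, in the order Mir17, Mir18, Mir19a, Mir20a, Mir19b-1 and Mir92-1. The lncRNA gene Mir17hg is annotated at chr14:115044390-115046728. It contains all 80 bases of the Mir92-1 hairpin and 2 bases of Mir19b-1, and the other 4 hairpins lie outside it and overlap no other annotated gene. Exon borders were not used here. Mature miR-19b and miR-92a are also encoded on chromosome X, by Mir19b-2 and Mir92-2, and their assays cannot tell the copies apart.

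The panel names the members without an arm. The sequences shown are those of the arm that the plain name stood for in older nomenclature, which is background knowledge and not given in the files. That arm is 5p for miR-17, miR-18a and miR-20a and 3p for miR-19a, miR-19b and miR-92a. They are written 5′ to 3′, with the seed (bases 2 to 8) in capitals, because the members and their paralogs fall into 4 seed groups whose pairs are compared within samples. The first group has the seed AAAGUGC and holds the members miR-17 and miR-20a and the paralogs miR-106a, miR-106b, miR-93 and miR-20b.
miR-17: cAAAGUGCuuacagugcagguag
miR-20a: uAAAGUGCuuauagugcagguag
miR-106a: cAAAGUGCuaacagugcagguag
miR-106b: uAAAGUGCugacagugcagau
miR-93: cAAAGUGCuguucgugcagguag
miR-20b: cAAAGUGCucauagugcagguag
The second group, with AAGGUGC, holds the member miR-18a and its paralog miR-18b.
miR-18a: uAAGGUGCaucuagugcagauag
miR-18b: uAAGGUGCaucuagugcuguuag
The third group, with GUGCAAA, consists of 2 members.
miR-19a: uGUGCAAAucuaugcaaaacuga
miR-19b: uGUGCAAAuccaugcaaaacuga
The fourth group, with AUUGCAC, holds the member miR-92a and the paralogs miR-25 and miR-363.
miR-92a: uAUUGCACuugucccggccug
miR-25: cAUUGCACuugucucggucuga
miR-363: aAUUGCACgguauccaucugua

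Several of these sequences are nearly identical. Counted from 1 at the 5′ end, with the base of the first microRNA before the position, miR-17 and miR-106a differ by 1 substitution, U10A, and miR-17 and miR-20a by C1U and C12U. The members miR-19a and miR-19b differ by U11C, and miR-18a and miR-18b by A18U and A20U. How far an assay also reads its near-identical relative was not tested here.

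The deposited value of each well is a threshold cycle (Ct), the cycle at which the fluorescence of the reaction passes a set line. Earlier (lower) Ct stands for more RNA, with 1 cycle near 1 log2 unit. PCR gives no read counts, so depth is given as the number of microRNAs with a Ct of at most 35. It was 290 in wild-type replicate 1 and 254 to 260 in the other samples. In all 4 samples 229 had such a Ct, and these were tested, among them all 6 members. Markers of the tissues of an embryo were present. All 4 striated-muscle assays, 7 of 7 epithelial, 3 of 3 neural, 2 of 2 endothelial and 7 of 7 blood-cell assays, and the liver marker miR-122, were detected in every sample. Wild-type replicate 1 stood apart. It had the most microRNAs detected but the latest median Ct over the 229 assays, 29.2 against 27.4 to 28.2. Its Ct values correlated with those of the other samples at a Pearson r of 0.939 to 0.954 over the 229 assays, against 0.978 to 0.989 among the others, and 90.0% of its wells, among them those of all 6 members, fell on whole cycles to within 0.1 after subtraction of a constant, 0.273, so the members' Ct in that sample may be resolved to about 1 cycle only. Most comparisons of the genotypes are given with and without it.

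Cluster members were among the earliest assays of the panel. The Ct of miR-19b was 22.2 in the first and 21.2 in the second wild-type sample, and the knockout samples followed with 21.6 (replicate 1) and 21.7 (replicate 2). The Ct of miR-17, in the same order, was 23.2, 21.3, 21.4 and 21.5. Among the microRNAs detected in a sample, miR-19b ranked between 4 and 8 and miR-17 was at 5 or 6. Efficiencies of the assays are unknown, so an order of assays is an order of Ct and not of molecules.

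The middle of the range was taken by miR-20a and miR-19a. For miR-20a, which has the seed of miR-17, the Ct was 25.2 and 23.3 in wild-type and 23.6 and 23.9 in knockout samples. For miR-19a, which has the seed of miR-19b, it was 25.3 and 24.1 in wild-type and 24.4 and 24.6 in knockout samples. Their ranks were 21 to 26 and 27 to 42.

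The latest Ct values of the cluster belonged to miR-92a and miR-18a. For miR-92a the Ct was 29.2 and 25.5 in wild-type and 26.8 and 26.0 in knockout samples, with ranks from 67 to 115. For miR-18a it was 30.2 and 28.1 in wild-type and 28.7 and 29.0 in knockout samples, with ranks from 131 to 152. Wild-type replicate 1 had the latest Ct for 6 of 6 members, as it did for 84.7% of all tested assays. For 6 of 6 members both knockout values lay between the wild-type values, which held for 63.3% of all tested assays.

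**Figure D1:**
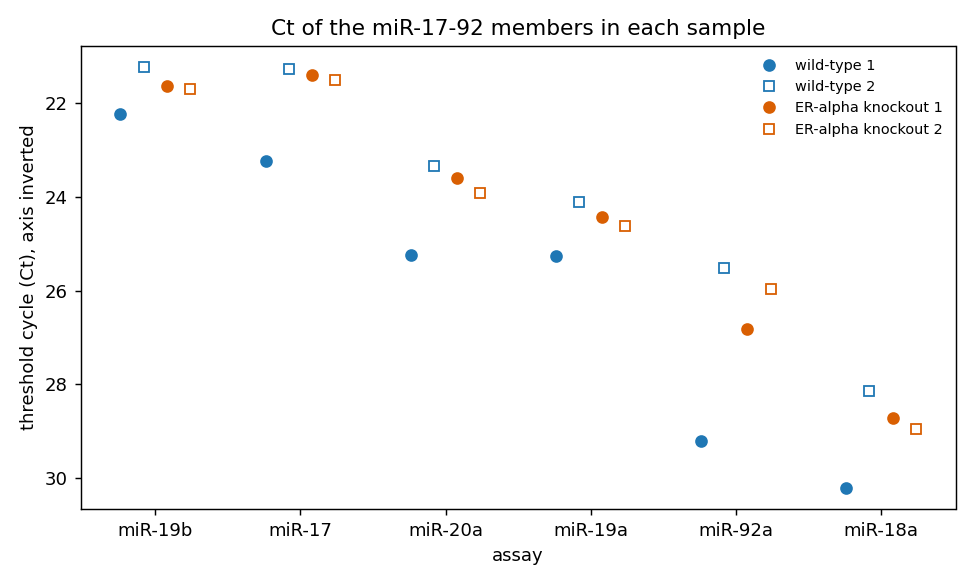
Threshold cycle of each member (y axis inverted, so that more RNA is higher) in wild-type (blue) and ER-alpha knockout (orange) embryos, replicate 1 as filled circles and replicate 2 as open squares. Wild-type replicate 1 has the latest Ct for all 6 members, and its gap to the other samples is widest for miR-92a, at 29.2 against 25.5 to 26.8.

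The delay of wild-type replicate 1 was not equal over the members. Over all 229 tested assays its Ct was later than the median of the other 3 samples by a median of 1.62 cycles, with quartiles of 0.99 and 2.06. The delay was 0.61 cycles for miR-19b and 0.82 for miR-19a, below that range. It was 1.5 for miR-18a, 1.64 for miR-20a and 1.83 for miR-17, and 3.24 for miR-92a, above it. Among the other 3 samples the Ct of miR-17 spanned 0.24 cycles, that of miR-19b 0.48, that of miR-19a 0.51, that of miR-20a 0.59, that of miR-18a 0.81 and that of miR-92a 1.31, where the median span of all tested assays was 0.57. In raw Ct, miR-92a thus varied most within the cluster with and without that sample. After the centring described next, this held only with that sample included.

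To compare samples, each was centred on its median tested microRNA, and the level is minus this centred Ct in log2 units. The level of miR-17 was 6.01 and 6.11 in wild-type and 6.80 and 6.33 in knockout samples, and that of miR-19b was 7.0 and 6.14 in wild-type and 6.57 and 6.13 in knockout samples. The knockout values of miR-17 lay above both wild-type values, and those of miR-19b overlapped with them. Levels of miR-20a were 3.99 and 4.04 in wild-type samples and 4.59 and 3.91 in the knockout, and those of miR-19a were 3.97 and 3.26 against 3.76 and 3.21. The levels of miR-92a were 0.02 and 1.85 in wild-type samples and 1.37 and 1.85 in the knockout, and those of miR-18a -0.99 and -0.78 against -0.54 and -1.13. In these 4 microRNAs the groups overlapped. The range of the level over the 4 samples was 1.84 log2 units for miR-92a and 0.60 to 0.88 for the other members. With wild-type replicate 1 left out it was 0.48 for miR-92a, within the 0.45 (miR-19b) to 0.69 (miR-17) of the others.

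By hairpin position the level did not run in 1 direction. Efficiencies of the assays are unknown, so this compares Ct and not molecules. The assays of miR-19b and miR-92a cannot tell these hairpins from the copies on chromosome X. Hairpins start at 0, 180, 329, 486, 634 and 756 bases from the first, in the order given above. The highest levels were those of the first (miR-17) and the fifth hairpin (miR-19b), the lowest that of the second (miR-18a), and the last hairpin (miR-92a) was second lowest, in each of the 4 samples. Between neighbours in the order of levels, miR-17 and miR-19b did not differ beyond their spread. Their Ct difference was -0.99 and -0.04 cycles in wild-type and 0.22 and 0.20 in knockout samples, with miR-19b minus miR-17 counted. The Ct of miR-20a came before that of miR-19a by 0.70 to 0.84 cycles in 3 samples. In wild-type replicate 1 both lay on the same whole-cycle step, 0.017 cycles apart, and have no order there. The Ct of miR-92a came before that of miR-18a by 1.01 to 2.98 cycles.

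**Figure D2:**
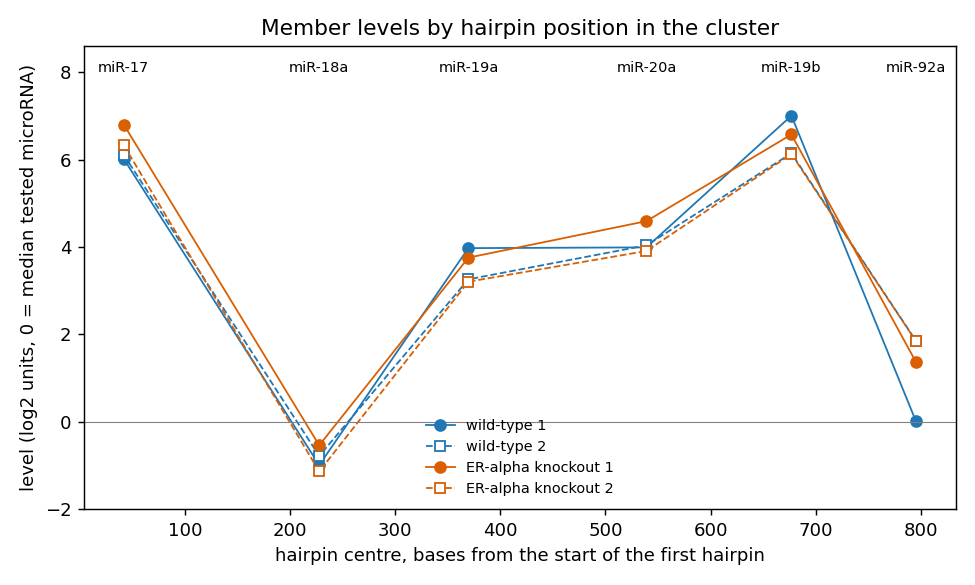
Level of each member in log2 units relative to the median tested microRNA of the sample (0), by the distance of the hairpin's centre from the start of the first hairpin in bases. Lines join the members of a sample and carry no values between them. Assay efficiencies are unknown, and the assays of miR-19b and miR-92a cannot tell these hairpins from the copies on chromosome X. All 4 samples follow 1 zigzag, from at least 6.01 at miR-17 down to at most -0.54 at miR-18a and up to at least 6.13 at miR-19b, and they spread most at miR-92a, through wild-type replicate 1.

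The second arm of the first hairpin was also on the panel, as an assay for the rat sequence, rno-miR-17-3p. It did not amplify in 3 samples and had a Ct of 36.5, above the detection limit, in wild-type replicate 1, where the assay of the main arm had 23.2. The mouse hairpin Mir17, at chr14:115043671-115043754, is shown to place the arms, with the mature 5p and 3p sequences in capitals.
Mir17: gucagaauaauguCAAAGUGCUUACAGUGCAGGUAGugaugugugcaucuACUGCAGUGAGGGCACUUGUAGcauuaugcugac
The rat sequence was not in the tables, so whether the assay matches the mouse 3p arm base for base is not known here.

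The main comparison asked whether the members change when ER-alpha is missing. None of the 6 passed the test. The largest differences were those of miR-92a, at 1.60-fold of wild-type in the knockout (log2 fold change 0.67, 95% interval -0.58 to 1.93), and miR-17, at 1.42-fold (0.50, -0.75 to 1.76). The log2 fold changes of miR-20a and miR-18a were 0.24 and 0.05, and those of miR-19a and miR-19b -0.14 and -0.22. Each had a standard error of 0.64 log2 units, since limma shared 1 variance over all assays, and a fold change of at least 2.38 was needed for an unadjusted p of 0.05. The limma adjusted p was 0.939 for miR-17, miR-19b, miR-20a and miR-92a, 0.962 for miR-19a and 0.986 for miR-18a. Over all 229 microRNAs, 0% passed an adjusted p of 0.05 in limma, and 10 (4.37%) had an unadjusted p under 0.05, of which 0 were members. Intervals of this width do not show that the genotypes are alike.

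These values stood close to the background of the panel. Of the 6 members 4 had a log2 fold change above 0, beside 68.1% of all tested microRNAs. The groups did not overlap for 1 of 6 members, miR-17, with the knockout higher, beside 33.2% of all tested microRNAs with the knockout higher and 6.11% with it lower. The median log2 fold change was 0.14 over the members and 0.26 over all 229.

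Without wild-type replicate 1 most of these values moved. The log2 fold change of miR-92a became -0.58, that of miR-18a -0.39 and that of miR-20a -0.12, all 3 now below 0. That of miR-17 became 0.12, while those of miR-19a and miR-19b stayed below 0, at -0.11 and -0.13. The median over the members became -0.12, with 1 of 6 above 0, beside -0.03 and 46.9% over the 241 microRNAs then tested. Without ER-alpha knockout replicate 1 the median over the members was -0.18.

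**Figure D3:**
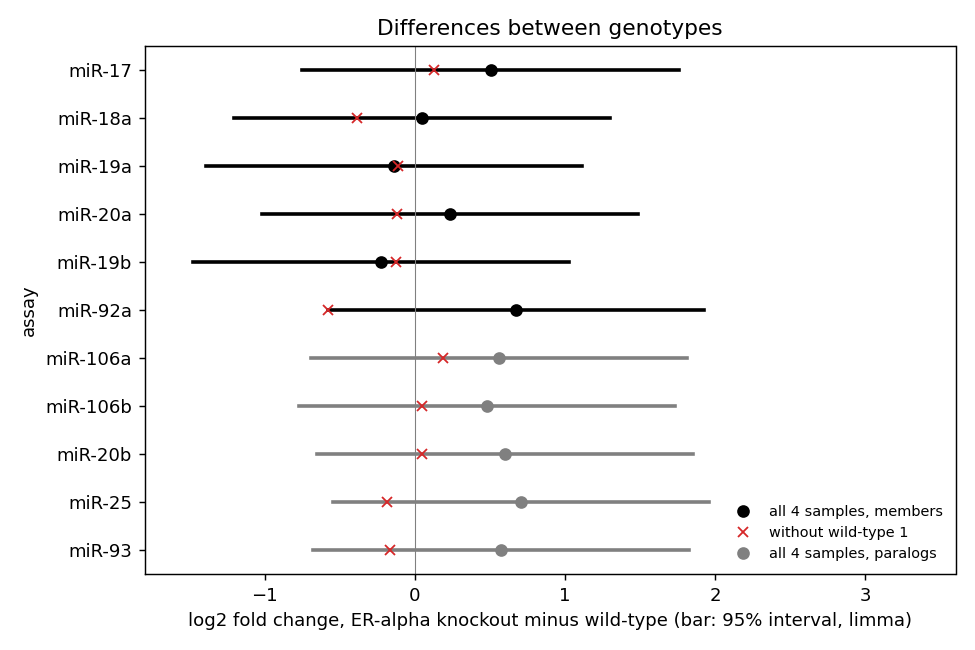
Log2 fold change of ER-alpha knockout minus wild-type for the 6 members (black) and the 5 tested paralogs (grey), with the 95% interval from limma over all 4 samples as bars, and the value without wild-type replicate 1 as red crosses. Every interval includes 0, and the crosses of miR-18a, miR-20a, miR-92a, miR-25 and miR-93 lie on the other side of 0 from their circles.

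Values against the small-RNA controls carry no centring on microRNAs. The mean level of the 6 members relative to the mean of the 5 controls (MammU6, U87, Y1, snoRNA135 and snoRNA202) was -1.30 and 0.24 log2 units in wild-type and -0.13 and 0.003 in knockout samples. The wild-type mean was -0.53 ± 1.09 and the knockout mean -0.07 ± 0.10 (SD, n = 2 each). The wild-type samples bracketed the knockout samples, and an exact two-sided permutation test returned p = 1, where 0.333 is the smallest value that 2 against 2 samples allow. The difference of 0.46 became -0.31 without wild-type replicate 1. It was 1.06 against Y1 alone, 0.61 against U87, and between 0.20 and 0.24 against each of the other 3. The Ct of U87 itself was 26.3 and 27.8 in wild-type and 26.1 and 28.3 in knockout samples, a wider range than that of every member but miR-92a.

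The Ct difference between assays of 1 sample needs no normalization, and any constant of the sample drops out of it. Some pairs with the same seed kept nearly fixed differences over the 4 samples. The Ct of miR-19a exceeded that of miR-19b by 3.03 and 2.88 cycles in wild-type and by 2.82 and 2.92 in knockout samples. The Ct of miR-106a exceeded that of miR-17 by 1.01 and 1.03 cycles in wild-type and by 1.02 and 0.91 in knockout samples. For miR-106b, encoded on chromosome 5, the excess over miR-17 was 5.03 and 4.93 in wild-type and 5.03 and 4.99 in knockout samples. These 3 differences spanned 0.21, 0.12 and 0.10 cycles, and the groups overlapped in each. In wild-type replicate 1 they lie near whole cycles, as its Ct values do, so closeness to the other samples within less than 1 cycle is not resolved there. Over the other 3 samples they spanned 0.10, 0.12 and 0.099 cycles. Spans this narrow were not limited to pairs of 1 seed. Over the same 3 samples the difference of miR-93 and miR-19a spanned 0.06 cycles. That of miR-25 and miR-19b spanned 0.08 and that of miR-93 and miR-19b 0.09. With wild-type replicate 1 these were 1.53, 1.99 and 1.68.

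The other pairs of 1 seed spanned more. The Ct of miR-20a exceeded that of miR-17 by 2.02 and 2.07 cycles in wild-type and by 2.21 and 2.42 in knockout samples, a span of 0.40 with no overlap of the groups. The 2.02 of wild-type replicate 1 lies near a whole cycle, so its order against the knockout values is not resolved. The excess of miR-20b over miR-17 spanned 0.36 cycles and that of miR-93 over miR-17 spanned 0.72. These 3 spans were 0.35, 0.17 and 0.32 without wild-type replicate 1. The Ct of miR-25 exceeded that of miR-92a by 1.99 and 2.69 in wild-type and by 1.86 and 2.75 in knockout samples, a span of 0.89. Both replicates numbered 1 had the smaller gap, but the 1.99 of wild-type replicate 1 is a difference of values near whole cycles. Its order against the other gaps is thus not resolved.

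Over the 9 pairs of a member with a tested paralog of its seed the median span was 0.50 cycles, and over the 2 member pairs of 1 seed it was 0.30. Over the 13 member pairs of different seeds it was 1.08, and over all 26106 pairs of tested assays it was 1.37. Without wild-type replicate 1 these medians were 0.29, 0.22, 0.34 and 0.75. The pairs share assays and samples and are given as a description. Within the cluster, pairs that hold miR-92a spanned a median of 1.98 cycles and the 10 pairs without it 0.87, or 1.07 and 0.29 without wild-type replicate 1. All member pairs that hold miR-92a are pairs of different seeds. No median was taken over pairs of a member with a paralog of another seed. Whether a shared seed goes with a narrower span was not tested.

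**Figure D4:**
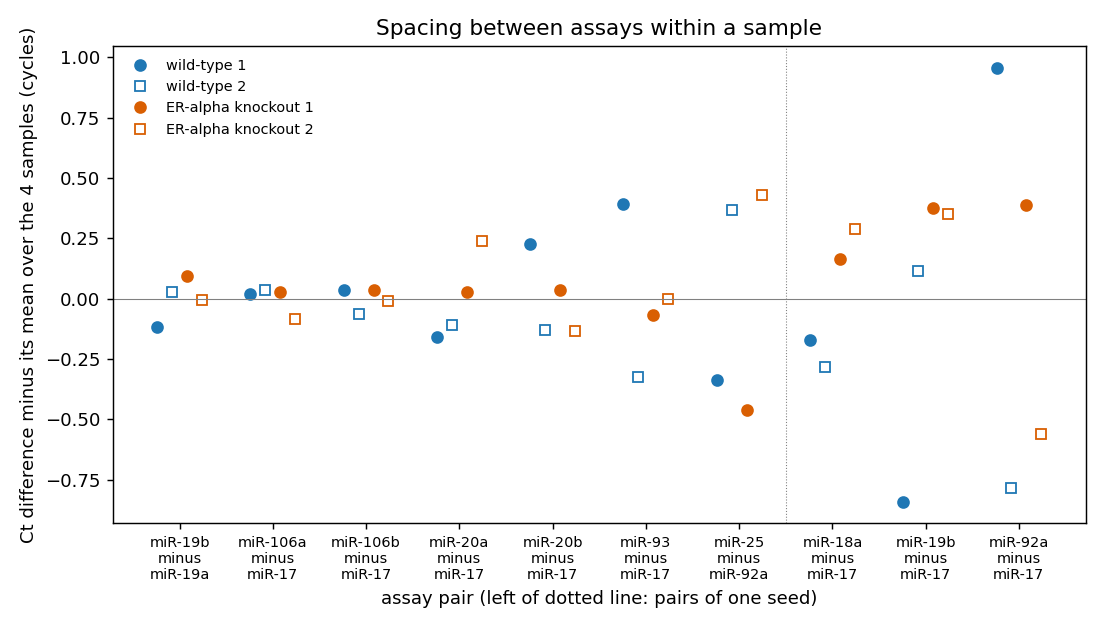
Ct difference between assays of 1 sample, minus its mean over the 4 samples, in cycles, for pairs with the same seed (left of the dotted line) and for miR-17 with members of other seeds (right). Wild-type samples are blue and ER-alpha knockout samples orange. The pairs miR-19b with miR-19a, miR-106a with miR-17 and miR-106b with miR-17 span 0.21, 0.12 and 0.10 cycles. The pair miR-25 with miR-92a, also of 1 seed, spans 0.89. The pairs of miR-17 with miR-18a, miR-19b and miR-92a span 0.57, 1.22 and 1.74, or 0.57, 0.26 and 1.18 without wild-type replicate 1.

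Neighbours along the primary RNA were compared between the genotypes in the same way. The Ct of miR-18a exceeded that of miR-17 by 7.0 and 6.89 cycles in wild-type and by 7.34 and 7.46 in knockout samples. The knockout gap was wider by 0.45 cycles, with no overlap, and by 0.51 without wild-type replicate 1. In that sample the gap of 7.0 is a difference of values near whole cycles, so its order against the knockout gaps is not resolved. An exact two-sided permutation test returned p = 0.333, the smallest possible with 2 against 2 samples, and 0.833 after Benjamini-Hochberg adjustment over the 5 neighbour pairs. Gaps of the other 4 neighbour pairs overlapped between the genotypes, with knockout minus wild-type differences of 0.19 cycles (miR-19a minus miR-18a), -0.37 (miR-20a minus miR-19a), 0.46 (miR-19b minus miR-20a) and -0.90 (miR-92a minus miR-19b). Without wild-type replicate 1 these 4 differences were -0.28, 0.0079, 0.0065 and 0.45.

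Among all 15 member pairs the groups did not overlap in 5, or 33.3%, beside 34.4% of all pairs of tested assays. Of these 5 pairs, 4 hold miR-17, which stood higher against miR-18a, miR-19a, miR-20a and miR-19b in the knockout samples, and the fifth sets miR-18a against miR-20a. The 5 pairs are not independent of each other, and in each the wild-type replicate 1 value is a difference of Ct values near whole cycles. Set against each of the 228 other tested microRNAs, miR-17 was higher in knockout samples without overlap for 30.7% and lower for 6.14%. For miR-19b these shares were 5.7% and 39%, for miR-19a 7.02% and 35.5%, for miR-18a 3.95% and 35.1% and for miR-20a 10.1% and 22.8%. For miR-92a they were 5.26% and 1.32%, the fewest pairs without overlap in the cluster. A pair that is higher for an assay is lower for its partner. Over all assays both shares are thus equal and together make up the 34.4% given above. The shares include wild-type replicate 1 and were not computed without it, so they are a description and no result about the genotypes.

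The paralog clusters arose by duplication and encode members of the same seed groups. The miR-106b-25 cluster lies on chromosome 5 and the miR-106a-363 cluster on chromosome X. Of their 7 mouse assays 5 were tested. The Ct values of miR-106a were 24.2 and 22.3 in wild-type samples and 22.4 in both knockout samples, and those of miR-93 were 27.2 and 24.5 in wild-type samples and 24.9 and 25.1 in the knockout. The values of miR-106b, miR-20b and miR-25 lay between 26.2 and 31.2. No well of miR-18b amplified, although its sequence differs from that of miR-18a only at the positions given above. The Ct of miR-363 was 35.7 to 36.3 in 3 samples, beyond the detection limit, and its well did not amplify in knockout replicate 2. A rat assay for the other arm of miR-20b, rno-miR-20b-3p, read 29.5 in wild-type replicate 1 and 39.1 in knockout replicate 1, and it did not amplify in replicate 2 of either group.

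By limma, 0 of the 5 tested paralogs passed (adjusted p of 0.939 for each). All 5 had log2 fold changes above 0, from 0.48 for miR-106b to 0.71 for miR-25, with a median of 0.57, which became 0.04 without wild-type replicate 1. The mean Ct of the members lay below that of the tested paralogs in each sample, by 2.33 and 1.90 cycles in wild-type and by 1.70 and 1.73 in knockout samples. Thus the difference of member minus paralog Ct was higher by 0.40 cycles in knockout samples, with no overlap of the groups, and by 0.18 without wild-type replicate 1. By an exact two-sided permutation test p was 0.333, which is the smallest it can give here. Of the 30 single pairs of a member with a tested paralog, 13 (43.3%) did not overlap between the groups, beside 34.4% of all pairs of tested assays. The groups did not overlap in 5 of 5 such pairs of miR-18a, in 0 of 5 of miR-17 and in 0 of 5 of miR-92a, with the other members between. The pairs of a member share its Ct and are not independent. Set against all 228 other tested microRNAs, miR-18a was higher without overlap for 3.95% and lower for 35.1%. In wild-type replicate 1 these pair differences are of values near whole cycles, so their order against the knockout values is not resolved.

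Lists of related microRNAs were counted beside the cluster. Of 12 tested microRNAs reported to be repressed by MYC, with log2 fold changes from -0.30 to 0.86, 0 passed the limma test, and 6 lay above the median of all assays, with a list median of 0.36. The 3 values of largest size were those of miR-30e (0.86), miR-16 (0.74) and miR-30b (0.66), which became -0.03, 0.52 and -0.03 without wild-type replicate 1. In the let-7 family, which accumulates as tissues differentiate, 0 of 9 passed, 3 lay above that median, and the list median was 0.15. Its largest values were those of miR-98 (1.59), let-7g (0.73) and let-7e (0.59), which became 1.11, 0.08 and -0.33 without wild-type replicate 1. The Ct of miR-98 was 33.3 and 31.1 in wild-type and 31.1 and 29.5 in knockout samples. Among 6 tested microRNAs reported to follow ER-alpha or to target its mRNA, of which miR-18a and miR-19b are members of the cluster, 0 passed and the median was 0.33; the largest value was that of miR-193b (0.96, or 0.30 without wild-type replicate 1). Without wild-type replicate 1 the 3 medians were -0.03, -0.25 and -0.06. That sample also had the lowest mean level of blood-cell markers, which was -0.28 and 0.20 in wild-type and 0.64 and 0.14 in knockout samples, with all 7 assays detected in each. Among these assays only miR-142-5p was not lowest there. The liver marker miR-122 was lowest there too, at 2.01 and 2.36 in wild-type and 3.37 and 2.56 in knockout samples. The mean level of the neural markers was highest there, at 0.66 against 0.09 to 0.13. The levels of miR-124 and miR-9 were highest there, and that of miR-128a was lowest. Mean levels of the striated-muscle, epithelial and endothelial markers lay within the range of the other samples. The cluster is active in blood progenitors, and the part of blood cells or other tissues in the members' values was not tested.

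The microRNAs whose profile over the 4 samples came closest to the mean profile of the members were miR-26b, miR-200c, miR-337-3p, miR-450a-5p and let-7d. The measure was the root mean square difference between deviations from each microRNA's own mean, which ran from 0.05 to 0.07 log2 units for these 5, beside a median of 0.35 over all tested assays. The members themselves lay at 0.11 (miR-18a and miR-20a), 0.16 (miR-17), 0.34 (miR-19a), 0.40 (miR-19b) and 0.73 (miR-92a) from their own mean. The mean profile deviated by -0.14 and -0.04 in the wild-type and by 0.28 and -0.10 in the knockout samples, so knockout replicate 1 was the highest of the 4. This is no trait of the cluster alone. The mean level over all tested microRNAs was also highest in knockout replicate 1, at 0.10 and -0.10 in wild-type and 0.32 and 0.03 in knockout samples.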

How the data were processed

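Per the labels' protocols, 4 samples were read with TaqMan microRNA assays in 40 cycles of real-time PCR (Applied Biosystems 7900HT). Values as deposited are Ct, per the file headers, and carry no other unit; threshold, baseline and any normalization by the authors are not given in the sources used here. Each microRNA has 1 well and U6 has 4, which were averaged. In wild-type replicate 1, 39 wells stand above cycle 40 and were taken as not amplified. Lines that name no assay were not used.

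MicroRNAs with a Ct of 35 or lower in all samples were tested by a two-sided moderated fit of genotype alone (limma 3.58.1 under R 4.3.3, Benjamini-Hochberg adjustment over 229 assays). The fit was run on simulated data with independent normal noise of 1 size in every assay and sample. Whole-cycle values, unequal spread and samples that deviate together were not simulated, so the check does not cover them. Taking 1 cycle as 1 log2 unit assumes full efficiency. Exact permutation tests used scipy 1.17.1, tables pandas 2.3.3 in Python 3.11.15 and plots matplotlib 3.10.9. Named microRNAs were the members, the paralogs, the controls, the 5 nearest profiles and up to 3 of each list. The members and lists were chosen with earlier results of these data known, and the comparison of pairs by seed was added after the Ct values were seen. Sequences are RefSeq's, GRCm38.p6. Alternatives covered normalization, the Ct limit, the filter, the constant, leaving out each sample, a block for the replicate number and the variance model. Samples of the same number deviated together (r = 0.37 over assays), but no label says what a number marks, so they were not treated as pairs.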

Additional observations from a re-analysis of the deposited data

Results flagged for a closer look

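A plant control assay, ath-miR159a, which enters no comparison, gave a Ct of 29.3 in wild-type replicate 1, the only sample in which it was read. In the same sample the Ct of miR-92a was 29.2 and that of miR-18a 30.2. Whether such late values there hold signal that is not from the named microRNA was not tested.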

How the results depend on the processing

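No member passed the limma threshold under any of the 14 alternatives, with smallest adjusted p values from 0.136 (miR-92a, without wild-type replicate 2) to 0.9996 (no normalization, all members). Over all microRNAs the replicate block gave 1 call, which was no member (0 members, smallest adjusted p for a member 0.732 by limma), against 0 without the block. The other alternatives gave 0 calls; with a sample left out, the lone sample of its group is assumed to vary like the other group. The median over the members, 0.14, became -0.27 with quantile normalization, -0.17 with average-profile centring, -0.15 at a Ct of 32 and 0.56 without a filter, and ranged from -0.18 to 0.32 with a sample left out. Rounding Ct to whole cycles moved the miR-17 to miR-18a difference to 1.00. With a sample left out, the differences between the genotypes ranged from -0.28 to 0.65 (miR-18a to miR-19a), -0.75 to 0.0079 (miR-19a to miR-20a), -2.25 to 0.45 (miR-19b to miR-92a) and -0.31 to 1.23 (members over controls). The cause of these moves was not tested.

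The log2 fold change of miR-17, 0.50, was 0.0 with quantile normalization, 0.19 with average-profile centring, 0.21 at a Ct of 32, 0.93 without a filter, 0.78 scaled to controls and 0.80 with no normalization, and that of miR-92a, 0.67, was 0.34, 0.36, 0.38, 1.10, 0.95 and 0.97 in the same order. With a sample left out, miR-17 ranged from 0.12 to 0.67. Other microRNAs changed sign as follows. With quantile normalization miR-18a was -0.30, miR-20a -0.24 and miR-106a -0.044. With average-profile centring miR-18a was -0.26 and miR-20a -0.075, and at a Ct of 32 they were -0.25 and -0.061. With the constant removed miR-18a was -0.035. The values of miR-19a and miR-19b were 0.14 and 0.055 scaled to controls, 0.16 and 0.068 with no normalization and 0.29 and 0.20 without a filter. With a sample left out, miR-18a ranged from -0.39 to 0.27, miR-19a from -0.42 to 0.059, miR-20a from -0.12 to 0.50, miR-92a from -0.58 to 1.71, miR-25 from -0.19 to 1.39 and miR-93 from -0.17 to 1.09. All tested paralogs share a seed with a member, so the restriction to such paralogs left 0.40. Assays with 1 well each and 2 samples per group limit the precision.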
